A study of Mus musculus with 12 samples.

Results

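Livers in which hepatocytes lacked FoxO1, FoxO3 and FoxO4 were compared with livers of littermate controls after a fast of 22 h. The comparison took every fasted sample of the study by its label, 6 of 12 liver samples, each measured on 1 microarray. The triple knockout group, labelled L-FoxO1,3,4 and called TKO here, held 3 samples, and the littermate group, labelled WT, held 3 samples. The background of every mouse was a mix of the strains C57BL/6J and 129, and cohorts were matched for age and sex, neither of which is given in the sources used here. The deletion was in hepatocytes, so other cells of the liver kept the 3 genes; the Cre driver is not given in the sources used here. Nothing in the labels states that each sample was a separate animal, so each p-value rests on sample-to-sample spread that could be technical. The other 6 samples came from refed mice (4 h) and entered only 1 alternative fit, named where it is used. The question was which transcripts differ in the fasted liver when hepatocytes lack these factors.

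FoxO proteins are transcription factors held out of the nucleus when insulin signals through Akt, and they act in the nucleus when insulin is low, as in a fast. In liver they are known for raising transcripts of glucose production and of insulin response, among them Igfbp1, and for restraining lipid synthesis. The endoplasmic reticulum (ER) folds and glycosylates the proteins that hepatocytes secrete. When unfolded proteins gather there, the sensors Ire1 (Ern1), Perk (Eif2ak3) and Atf6 start the unfolded protein response: Ire1 splices Xbp1, Atf6 is cut and moves to the nucleus, and Perk phosphorylates eIF2-alpha, which favours translation of Atf4.

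Values are log2 expression after RMA, 1 per feature of the array, for 23238 features, of which 14939 carried 1 gene symbol. The lowest and highest values on the 6 arrays were 1.90 and 14.1, and array medians were 5.79 to 5.89. Pearson's correlation of an array with others of its genotype, across features, was 0.986 to 0.988, against 0.980 to 0.986 with arrays of the other genotype. The median SD of a feature was 0.169 in TKO livers and 0.168 in WT livers. The deleted genes gave a weak check of the labels. Foxo1 was at 9.18, 9.33 and 9.41 in TKO livers and 9.53, 9.65 and 9.48 in WT livers, without overlap but with an adjusted p of 0.413 (limma). Foxo3 differed by -0.14 (adjusted p = 0.748, limma) and Foxo4 by -0.17 (adjusted p = 0.854, limma). A feature averages probes over a gene, so these values do not show whether an exon was removed, and the direction of every comparison rests on the labels.

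In fasted TKO livers, a set of transcripts of ER protein folding rose and a small group of transcripts that includes Txnip fell. The limma fit to the 6 arrays, with Benjamini-Hochberg adjustment over 23238 features and a threshold of 0.05, called 40 features (0.172%). Of these, 30 were higher in TKO (0.129%) and 10 were lower (0.043%), and the TKO and WT livers did not overlap for any of the 40. Differences of at least 2-fold were seen for 27 of the higher and 9 of the lower features, where 279 of all features (1.2%) were at least 2-fold higher and 90 (0.387%) at least 2-fold lower, and the median size was 1.40 on the log2 scale. At an unadjusted p under 0.05, 1958 features (8.43%) were higher and 1045 (4.5%) lower. The adjusted p-values of the called features lay between 0.0381 and 0.0457, close to the threshold. The split by direction moved with the scaling, to 34 higher and 19 lower after median centring and to 29 higher and 22 lower after cyclic loess. The count fell to 0, 1 and 3 without WT liver 1, 2 or 3, and to 2, 1 and 6 without TKO liver 1, 2 or 3. All 40 kept their direction in each of these fits, but without overlap, leaving out 1 array could not have reversed it. A fit to all 12 arrays, whose spread is estimated from refed livers too, called 162 features higher (0.697%) and 43 lower (0.185%) for the same fasted contrast, and 32 of the 40 were among them. In the text below, rose and fell refer to the 6-array fit. A call said to be in the 12-array fit alone was not made in this 6-array fit. Some such genes were called under other settings of the 6 arrays.

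**Figure D1:**
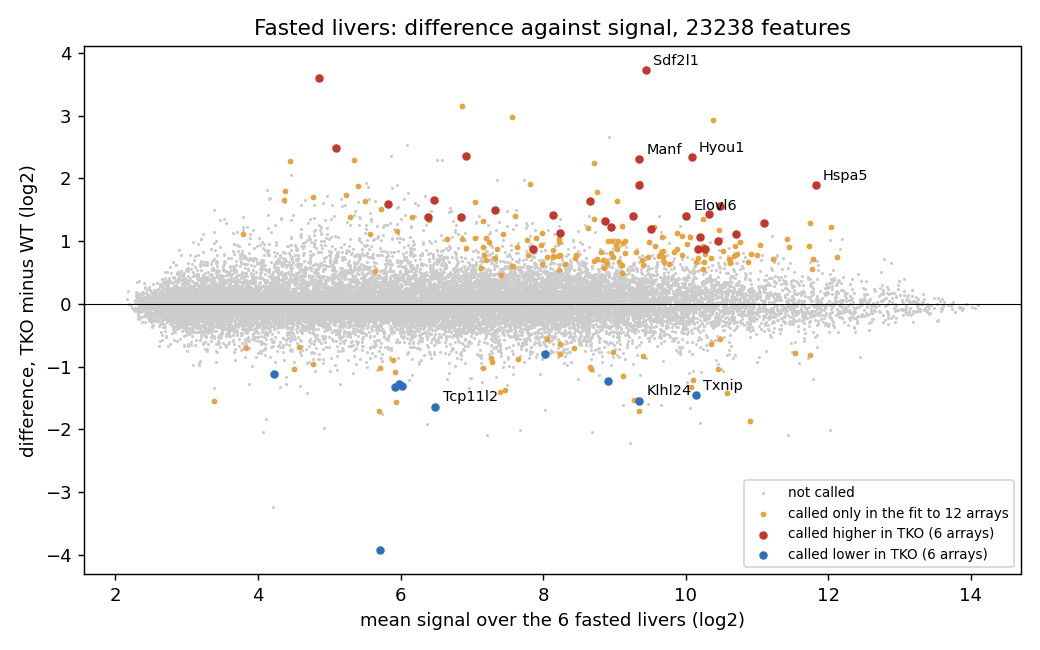
Difference between fasted TKO and WT livers (log2, TKO minus WT, vertical) against mean signal over the 6 livers (log2, horizontal) for 23238 features, 1 point each. The 30 features called higher and the 10 called lower in the 6-array fit are coloured, features called only in the 12-array fit are in orange, and no call of the 6-array fit lies below a mean signal of 4.

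The largest named rise was in Sdf2l1, an ER protein that works with the chaperone Hspa5. It was at 11.32, 10.69 and 11.90 in TKO livers and 7.49, 7.71 and 7.53 in WT livers. The lowest TKO liver thus lay far above the highest WT liver, a difference of 3.73 (SE 0.29, adjusted p = 0.0381, limma) or 13.2-fold. Hspa5 (BiP) is the main Hsp70 chaperone of the ER and binds the sensors of the unfolded protein response. Its level was 12.80, 12.37 and 13.13 in TKO livers and 10.85, 11.001 and 10.78 in WT livers, a difference of 1.89 (SE 0.20, adjusted p = 0.0457, limma). Hyou1, a nucleotide exchange factor for Hspa5, stood at 11.22, 10.77 and 11.76 in TKO livers and 8.88, 9.07 and 8.78 in WT livers, a difference of 2.34. Manf, an ER protein that is secreted under stress, stood at 10.61, 9.98 and 10.92 in TKO livers and 8.10, 8.46 and 8.04 in WT livers, a difference of 2.30. In all 4 genes TKO liver 2 was the lowest of the TKO livers and TKO liver 3 the highest, and none overlapped with WT. Hyou1 lies beside Slc37a4, the glucose-6-phosphate transporter, on chromosome 9, and Slc37a4 differed by -0.14 with overlapping groups (adjusted p = 0.828, limma).

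Other called rises belonged to the handling of new proteins. Alg12, a mannosyltransferase that builds the N-glycan precursor, was at 9.56, 9.53 and 9.37 in TKO livers and 7.58, 8.01 and 7.93 in WT livers, a difference of 1.64 (SE 0.14, adjusted p = 0.0381, limma). Mlec (malectin), an ER lectin that binds glucosylated N-glycans, had 2 features and both rose, by 1.41 and 1.29. Slc35b1, the ATP carrier of the ER membrane, was at 11.19, 11.14 and 11.46 in TKO livers and 9.54, 10.05 and 9.52 in WT livers. For Slc35b1 the groups were apart and the difference was 1.56. Srprb, a subunit of the receptor for the signal recognition particle, rose by 1.40, with an adjusted p of 0.137 in the 12-array fit (limma). Sec23b, a subunit of the COPII coat that carries cargo out of the ER, rose by 1.43. Tmed9, a cargo receptor of the same route, rose by 1.13, and Preb, which activates the COPII GTPase Sar1, by 0.87.

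**Figure D2:**
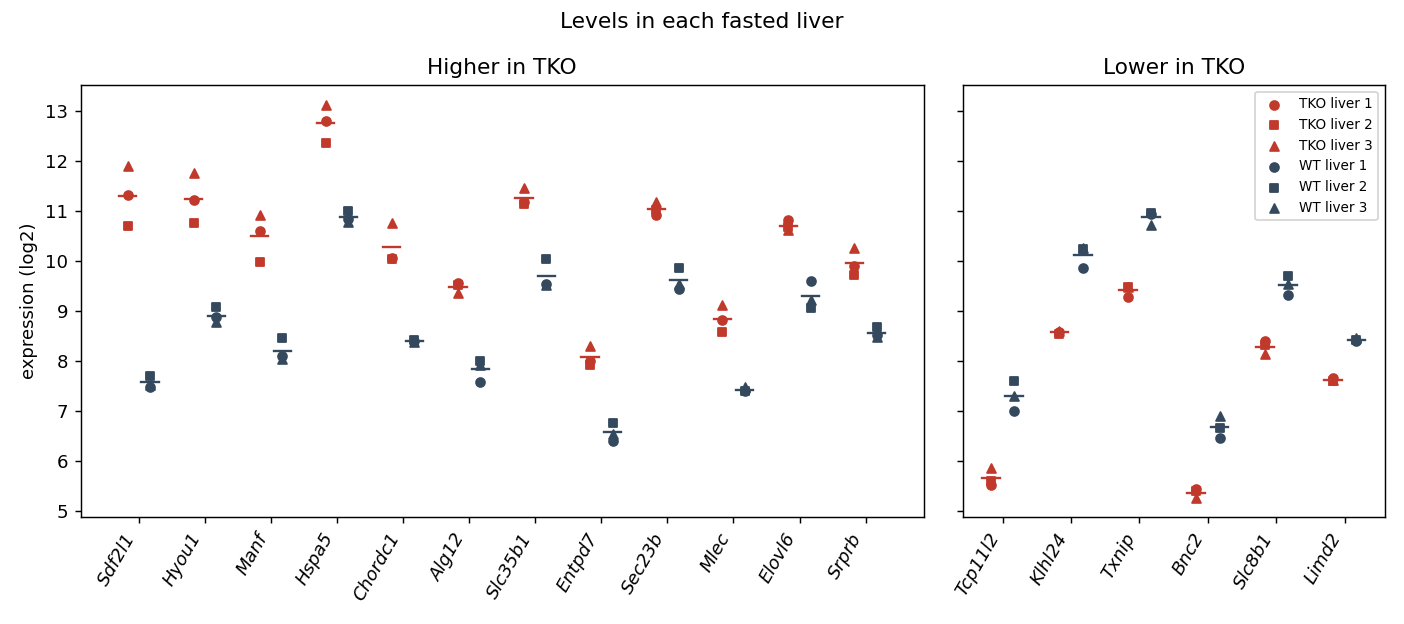
Expression (log2) in each fasted liver of the 12 genes with the largest called rises and the 6 named genes called lower; red symbols left of each position are TKO livers, dark symbols right of it are WT livers, and short lines are group means. Sdf2l1 has the widest gap, with means of 11.30 in TKO and 7.58 in WT, and TKO and WT symbols overlap for none of the 18 genes.

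Promoters show which of the called genes carry known stress or FoxO motifs. The sequences are RefSeq windows of 300 bases on GRCm38.p6, 250 before to 50 after the gene's start. They are read in the direction of the gene, and motif matches are given in capitals. The motifs, searched on both strands, were the ER stress element (CCAAT and CCACG, 9 bases apart), known as a binding site of Atf6 with NF-Y, the FoxO heptamer TGTTTAC, and the heat shock element (GAA, TTC and GAA, each 2 bases apart). Hspa5 (chr2:34771840-34772139, plus strand), Alg12 (chr15:88819269-88819568, minus strand) and Hsp90b1 (chr10:86705395-86705694, minus strand) are shown for the ER stress element. Chordc1 (chr9:18292017-18292316, plus strand) is shown for the heat shock element, and Txnip (chr3:96557707-96558006, plus strand) and Elovl6 (chr3:129532136-129532435, plus strand) for the FoxO heptamer, read on the opposite strand.
Hspa5: 
Alg12: 
Hsp90b1: 
Chordc1: 
Txnip: 
Elovl6: 

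The ER stress element was in 39 of 32851 promoters (0.119%), the FoxO heptamer in 3.65% and the heat shock element in 0.603%. A gene can have several promoters, and counted by gene the shares were 0.137%, 4.05% and 0.662% of 27025 genes. Of the 19 named genes that rose, 16 matched a promoter, and the ER stress element was in 2 of them, Hspa5 and Alg12. In the 12-array fit 92 of 114 genes called higher matched a promoter, and 6 held the element: Alg12, Creld2, Derl3, Hsp90b1, Hspa5 and Syvn1. Alg12 and Creld2 lie head to head on chromosome 15 and share 1 copy. Of genes with a promoter, 1 of 16 that rose, Elovl6, and 1 of 4 that fell, Txnip, held the FoxO heptamer. In the 12-array fit it was in 4 of 92 genes called higher (4.35%) and in 6 of 28 called lower (21.4%): Acsm3, Cpsf4l, Lpin2, Tmem140, Txnip and Ypel3. The heat shock element was in 1 of 16 genes that rose, Chordc1, and in 0 of 4 that fell. In the 12-array fit it was in 2 of 92 called higher, Chordc1 and Hsph1, and in 0 of 28 called lower. A match is a description of these letters in this window, not evidence of binding.

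Lists of ER genes, drawn up after values of these data had been seen, describe how far the rises extend and are not independent evidence of them. Across 6 such lists, 124 genes in all, 10 rose and 0 fell, against 0.129% of all features called higher. The 12-array fit called 32 of the 124 higher and 0 lower, against 0.697% of all features called higher. In 73 genes every TKO liver was above every WT liver, against 10.9% of all features, and in 1 gene, Alg14, every TKO liver was below, against 7.46%. Among features with a mean signal of 8 to 10, 19.8% were higher and 9.94% lower without overlap. The median difference of the 124 genes was 0.45, where that of all features was 0.0034. It was 0.44, 0.27 and 0.57 for TKO livers 1, 2 and 3 taken singly against the WT mean, and 0.35 to 0.52 with any 1 array left out. No more than 1 of the 124 genes was called with any 1 array left out.

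Of 25 ER chaperones and co-chaperones, 5 rose (Sdf2l1, Hyou1, Manf, Hspa5 and Mlec), and 9 were called higher in the 12-array fit. For this list and the other 5 ER lists, the shares of all features called higher were 0.129% in the 6-array fit and 0.697% in the 12-array fit. Creld2, a secreted ER stress protein, was at 12.00, 10.98 and 12.58 in TKO livers and 8.88, 9.17 and 8.70 in WT livers. Its groups were far apart, by 2.94, yet its adjusted p was 0.0567 (limma), against 0.0116 in the 12-array fit. Hsp90b1 (Grp94), the ER form of Hsp90, differed by 1.22 and was called only in the 12-array fit (adjusted p = 0.0192, limma). Hspa13 and Dnajb11, an Hsp70 relative and an Hspa5 co-chaperone, differed by 1.79 and 1.64 and were called in the 12-array fit alone. Calr (calreticulin) differed by 0.88 without overlap and was called in neither fit.

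Among 15 protein disulfide isomerases and ER oxidases, 0 rose and 2 were called higher in the 12-array fit, Pdia4 and Pdia3. Pdia4 differed by 1.29 and Pdia3 by 0.92, while Pdia6 differed by 1.23 without being called. Of 14 genes of ER-associated degradation, which returns misfolded proteins to the proteasome, 0 rose and 3 were called in the 12-array fit. These included Syvn1 (Hrd1), the ubiquitin ligase of that route, at 10.04, 9.64 and 11.27 in TKO livers and 8.35, 8.45 and 8.37 in WT livers. Derl3, a channel component, differed by 2.98 in the same direction, but TKO liver 2 stood at 7.57 beside 9.93 and 9.68 in the other TKO livers, and WT livers were at 5.62, 5.85 and 6.77. Herpud1, a membrane protein of the same route that ER stress is known to induce, was at 11.28, 11.66 and 12.72 in TKO livers and 11.80, 12.22 and 11.53 in WT livers. Its groups overlapped, and its difference was 0.04. Of 19 genes of translocation into the ER, Srprb rose and 4 were called in the 12-array fit, with Sec61a1, the core of the channel, 0.72 higher. N-glycosylation counted 27 genes, with Alg12 risen and 6 called in the 12-array fit, and ER to Golgi transport 24 genes, with 3 risen and 8 called in the 12-array fit.

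**Figure D3:**
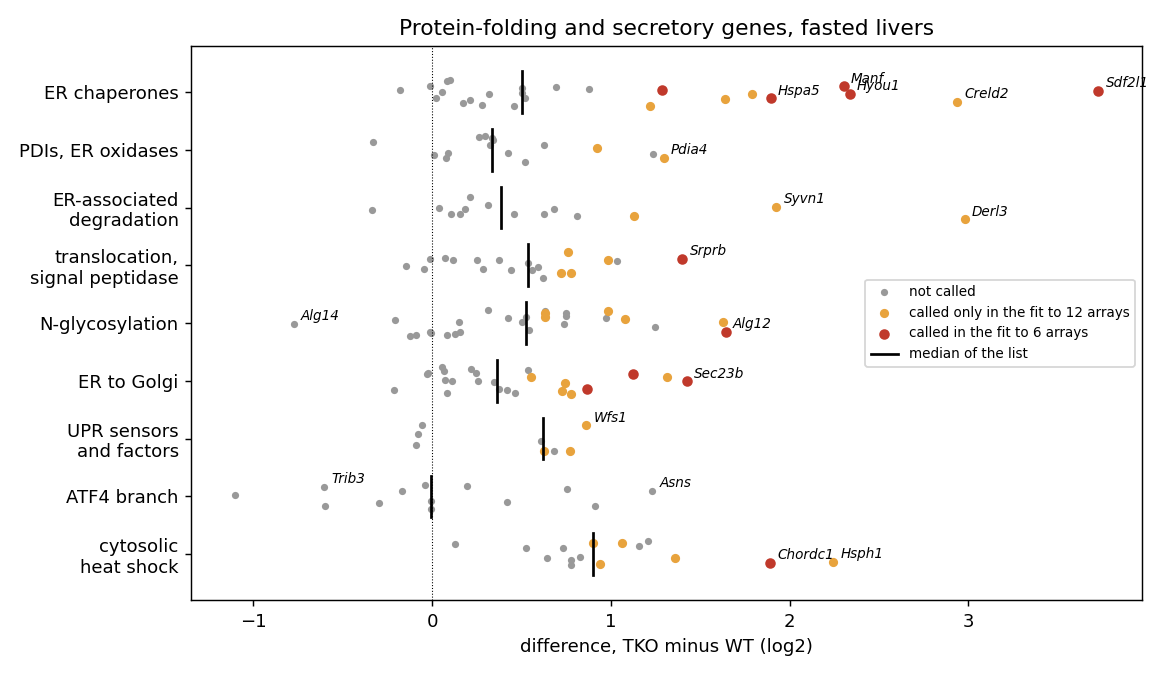
Difference between fasted TKO and WT livers (log2, TKO minus WT, horizontal) for each gene of the ER, stress and heat shock lists, 1 point per gene and 1 row per list. Red points were called in the 6-array fit, orange points only in the 12-array fit and grey points in neither; across the 6 ER lists the median of the 124 genes is 0.45, and that of the ATF4 branch is -0.01.

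Of 10 listed sensors and factors of the unfolded protein response, 8 were matched to a named feature, and Atf6 itself was not among them and was not analysed here. Of the 8, 0 rose, against 0.129% of all features, and 3 were called higher in the 12-array fit (Ern1, Atf6b and Wfs1), against 0.697%. In 5 every TKO liver was above every WT liver, against 10.9% of all features, and the median was 0.62. Xbp1 was at 12.21, 11.95 and 12.39 in TKO livers and 11.47, 11.52 and 11.51 in WT livers, a difference of 0.68 (adjusted p = 0.120, limma). A gene-level feature does not separate spliced from unspliced Xbp1. The 13 genes of the Atf4 branch, which follows Perk, had a median near 0: 0 were called in either fit, and 4 were higher and 3 lower without overlap, against 10.9% and 7.46% of all features. That median was -0.01, and it was 0.066 without WT liver 1. Ddit3 (Chop) was at 7.12, 7.17 and 8.63 in TKO livers and 6.83, 6.48 and 6.88 in WT livers, so that TKO liver 3 stood well above the rest, and the difference of 0.91 was 0.42 without it. Trib3 and Chac1, both Atf4 targets, differed by -0.60 each, with adjusted p-values of 0.189 and 0.173 (limma). Asns, which makes asparagine, differed by 1.23 (adjusted p = 0.319, limma), and by 0.77 without TKO liver 1. Of 16 aminoacyl-tRNA synthetases, 0 rose, and 2 were called higher in the 12-array fit, Wars and Rars, which differed by 0.99 and 0.76. Over all features the shares called higher were 0.129% and 0.697%. Of the 16, 6 were higher and 0 lower without overlap, against 10.9% and 7.46% of all features, with a median of 0.30.

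Among 15 cytosolic heat shock genes, Chordc1 rose, 6 were called higher in the 12-array fit, and 13 were higher without overlap, with a median of 0.90. Over all features these shares were 0.129%, 0.697% and 10.9%. Chordc1, a co-chaperone of Hsp90, stood at 10.06, 10.05 and 10.77 in TKO livers and 8.41, 8.42 and 8.37 in WT livers, a difference of 1.89 (SE 0.21, adjusted p = 0.0457, limma). Under cyclic loess its adjusted p was 0.0539 (limma), so no heat shock gene was called there. Hsph1 (Hsp110) was at 9.67, 9.29 and 10.56 in TKO livers and 7.69, 7.39 and 7.71 in WT livers, a difference of 2.24 called in the 12-array fit alone (adjusted p = 0.0214, limma). The mean level of the list was 8.84, 8.78 and 9.45 in TKO livers and 8.04, 7.96 and 8.04 in WT livers. TKO liver 3 was the highest for heat shock genes and also for ER chaperones, whose mean levels were 10.02, 9.78 and 10.25 in TKO livers and 8.97, 9.16 and 9.07 in WT livers. Stip1 and Fkbp4, Hsp90 co-chaperones, differed by 1.36 and 1.06, called in the 12-array fit alone. Cirbp, an RNA-binding protein induced by cold, differed by -1.37, and was called lower in the 12-array fit (adjusted p = 0.0450, limma).

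Among known FoxO targets, Txnip fell. It binds thioredoxin and limits glucose uptake, and it stood at 9.28, 9.49 and 9.48 in TKO livers and 10.93, 10.96 and 10.73 in WT livers. The groups were well apart, with a difference of -1.46 (SE 0.12, adjusted p = 0.0381, limma). Klhl24, a substrate adaptor of a ubiquitin ligase, was at 8.59, 8.55 and 8.60 in TKO livers and 9.87, 10.24 and 10.26 in WT livers, a difference of -1.54 (SE 0.13, adjusted p = 0.0381, limma). For Klhl24 the SD among TKO livers was 0.02, against 0.22 among WT livers. Tcp11l2 was at 5.52, 5.61 and 5.88 in TKO livers and 7.01, 7.61 and 7.31 in WT livers, a difference of -1.64. The other 3 named falls were Bnc2, a zinc finger protein (-1.30), Slc8b1, the sodium-calcium exchanger of mitochondria (-1.23), and Limd2 (-0.80).

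Of 11 FoxO targets of the insulin response, Txnip alone fell, against 0.043% of all features called lower; 5 were lower and 2 higher without overlap, against 7.46% and 10.9% of all features, and the median was -0.30, or -0.47 without WT liver 1. Igfbp1, a binding protein of insulin-like growth factors, was at 6.34, 6.31 and 7.37 in TKO livers and 8.34, 8.86 and 8.84 in WT livers. The groups were apart by -2.01, with an adjusted p of 0.0758, and 0.197 in the 12-array fit (limma). Pdk4, which inhibits pyruvate dehydrogenase, differed by -0.70 (adjusted p = 0.164, limma), and Insr, the insulin receptor, by -0.30. Of 14 other FoxO targets, 0 fell, 1 (Ccng2, a cyclin G) was called lower in the 12-array fit, and 8 were lower without overlap, with a median of -0.43. Over all features these shares were 0.043%, 0.185% and 7.46%. Klhl24 and Tcp11l2 were taken out of this list after their values were seen, because their place in it was not sure; with them 2 of 16 genes fell, against the same 0.043% of all features, and the median was -0.47. Depp1, an autophagy regulator, was at 8.46, 7.39 and 7.14 in TKO livers and 10.04, 9.48 and 9.62 in WT livers, a difference of -2.05 (adjusted p = 0.0906, limma). Map1lc3b, Gabarapl1 and Bnip3, of autophagy and mitophagy, differed by -0.57, -0.49 and -0.41 without overlap or call. Bcl6, a repressor, varied more among TKO livers than the other 13 genes of the list, at 6.52, 9.43 and 9.14, against 7.48, 7.73 and 6.24 in WT livers.

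Transcripts of glucose production gave 0 calls among 7 genes in the 6-array or the 12-array fit, against 0.172% and 0.882% of all features. Of the 7, 2 (Pck1 and Ppargc1a) were lower and 0 higher without overlap, against 7.46% and 10.9% of all features. Pck1, which makes phosphoenolpyruvate, was at 11.61, 12.17 and 12.29 in TKO livers and 12.71, 12.98 and 12.92 in WT livers, apart by -0.85 (adjusted p = 0.163, limma). G6pc, the catalytic subunit of glucose-6-phosphatase, was at 10.52, 12.20 and 11.15 in TKO livers and 11.73, 12.11 and 12.61 in WT livers. The G6pc groups overlapped, since TKO liver 2 lay above WT livers 1 and 2, and the difference of -0.86 had an adjusted p of 0.481 (limma) and was -0.48 without TKO liver 1 and -1.32 without TKO liver 2. Ppargc1a, a coactivator of this program, was at 8.26, 8.52 and 6.98 in TKO livers and 8.76, 9.003 and 8.80 in WT livers, a difference of -0.93 (adjusted p = 0.378, limma) that was -0.46 without TKO liver 3. The median of the 7 genes was -0.14, and it ranged from -0.37 without WT liver 1 to -0.08 without TKO liver 2.

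In lipid synthesis, 1 of 11 genes rose, against 0.129% of all features. Elovl6, which lengthens long-chain fatty acids, was at 10.82, 10.68 and 10.62 in TKO livers and 9.60, 9.07 and 9.23 in WT livers, a difference of 1.41 (SE 0.16, adjusted p = 0.0457, limma). Under cyclic loess its adjusted p was 0.0555 (limma). Fasn, fatty acid synthase, was at 11.02, 10.90 and 11.24 in TKO livers and 10.74, 10.02 and 9.70 in WT livers, apart but not called (adjusted p = 0.235, limma). Acaca, which makes malonyl-CoA, differed by 0.48 without overlap, and Acly, which makes acetyl-CoA in the cytosol, by 0.44 with overlap. Srebf1, the main lipogenic transcription factor gene, differed by -0.07, and Scd1, a desaturase, by -0.28, so the list did not move together. Its median was 0.08, or 0.17 without TKO liver 3. Of the 11 genes, 3 were higher and 0 lower without overlap, against 10.9% and 7.46% of all features. Mean levels of the list were 9.59 to 9.70 in TKO livers and 9.25 to 9.57 in WT livers. Rises in genes outside the lists were those of Acsl4, an acyl-CoA synthetase, by 1.23, Slc39a10, a zinc importer, by 1.39, and Slc16a6, of the monocarboxylate transporter family, by 1.39. The remaining rises with 1 symbol were Entpd7, an intracellular nucleotide hydrolase (1.502), Cdk2ap2 (1.19) and Mctp2 (0.88), and 14 of the 40 called features had several symbols (2) or none in the annotation table (12).

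**Figure D4:**
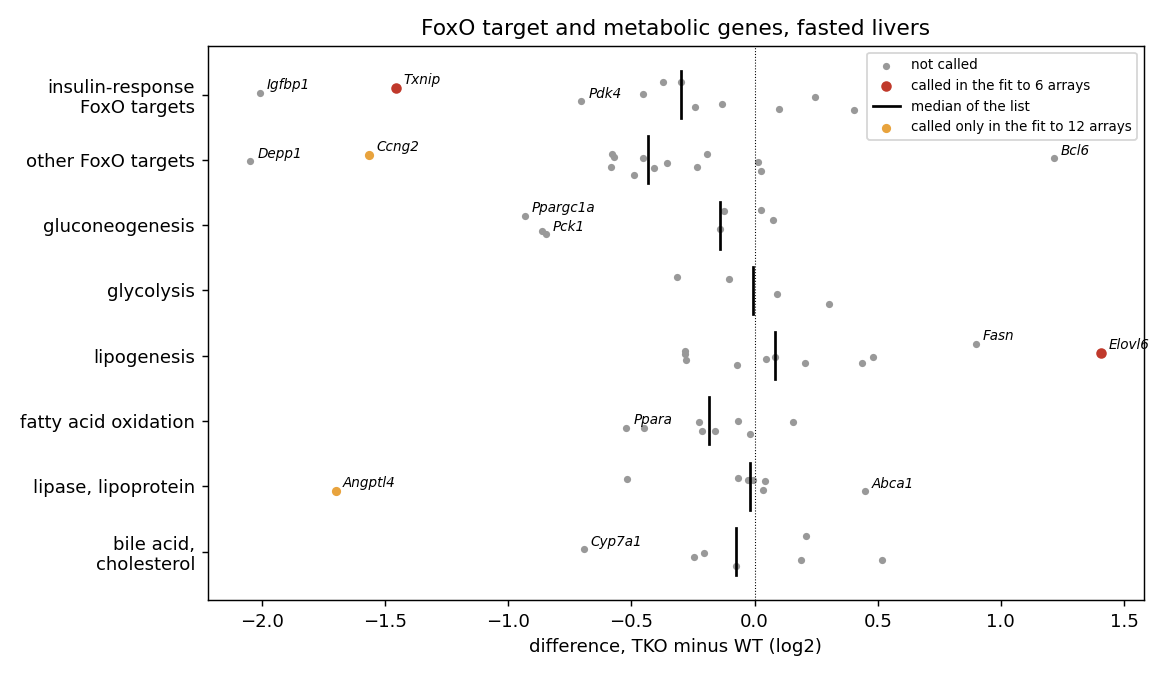
Difference between fasted TKO and WT livers (log2, TKO minus WT, horizontal) for each gene of the FoxO target and metabolic lists, 1 point per gene and 1 row per list. Red points were called in the 6-array fit (Txnip and Elovl6), orange points only in the 12-array fit (Ccng2 and Angptl4) and grey points in neither.

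Fatty acid oxidation and ketogenesis gave 0 calls among 8 genes in either fit, with a median of -0.19, or -0.07 without TKO liver 3. Over all features 0.172% were called in the 6-array fit and 0.882% in the 12-array fit. At such shares, 0 calls in a short list do not show an absence of change. Of the 8 genes, 2 were lower and 0 higher without overlap, against 7.46% and 10.9% of all features. Ppara, the fasting-responsive nuclear receptor, was at 11.76, 11.51 and 11.38 in TKO livers and 12.13, 12.01 and 12.08 in WT livers, apart by -0.52 (adjusted p = 0.176, limma). Cpt1a, which admits fatty acids to mitochondria, differed by -0.45 with overlap. Among 8 genes of lipases and lipoproteins, 0 were called in the 6-array fit and Angptl4, an inhibitor of lipoprotein lipase, was called lower in the 12-array fit. Over all features 0.185% were called lower in that fit. Of these 8 genes, 2 were lower and 1 higher without overlap. Angptl4 was at 8.46, 7.99 and 9.02 in TKO livers and 9.90, 10.54 and 10.13 in WT livers, a difference of -1.70 (adjusted p = 0.0304 in the 12-array fit, limma). Glycolysis (4 genes), bile acid and cholesterol (7 genes) and acute phase (7 genes) gave 0 calls in either fit, with medians of -0.01, -0.07 and 0.15. The sign of each rested on single livers: the glycolysis median was 0.08 without WT liver 2, the bile acid median 0.15 without WT liver 3, and the acute phase median -0.015 without TKO liver 3.

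Markers of liver cell types were set beside these results, since in whole liver fewer cells of a type and less RNA per cell cannot be told apart. None of 31 markers of 8 cell types was called in the 6-array or the 12-array fit, against 0.172% and 0.882% of all features. Mean levels were 13.54 to 13.65 in TKO livers and 13.52 to 13.68 in WT livers for 3 hepatocyte markers, and 8.01 to 8.52 in TKO livers and 8.26 to 8.71 in WT livers for 4 macrophage markers. They were 5.06 to 5.40 in TKO livers and 5.33 to 5.75 in WT livers for 4 lymphocyte markers, and 8.46 to 8.89 in TKO livers and 8.44 to 8.85 in WT livers for 5 endothelial markers. Stellate markers (5) were at 7.42 to 7.65 in TKO livers and 7.20 to 7.44 in WT livers. The 3 pancreas markers, a tissue rich in ER proteins, were at 3.65 to 3.91 in TKO livers and 3.72 to 3.83 in WT livers, near the low end of the scale. Each of these ranges overlapped between genotypes, but single markers differed within a list. All 4 macrophage markers had lower means in TKO livers, with a median difference of -0.27. Of the lymphocyte markers 3 of 4 had lower means in TKO livers, with a median difference of -0.29. Of the endothelial markers 4 of 5 had lower means in TKO livers, with a median difference of -0.25; Kdr differed by -0.43 without overlap, while Lyve1 differed by 1.47 with overlap. Of the stellate markers, Lrat differed by 0.65 and Reln by -0.24, both without overlap. Of the 3 hepatocyte markers, 2 were lower without overlap, with a median difference of -0.06. Over all features 7.46% were lower and 10.9% higher without overlap. The part of these markers in the results above was not tested. The acute phase list was highest in TKO liver 3, at 10.16, against 9.19 and 9.16 in TKO livers 1 and 2 and 9.20 to 9.54 in WT livers, and its part in the levels of that liver was not tested.

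**Figure D5:**
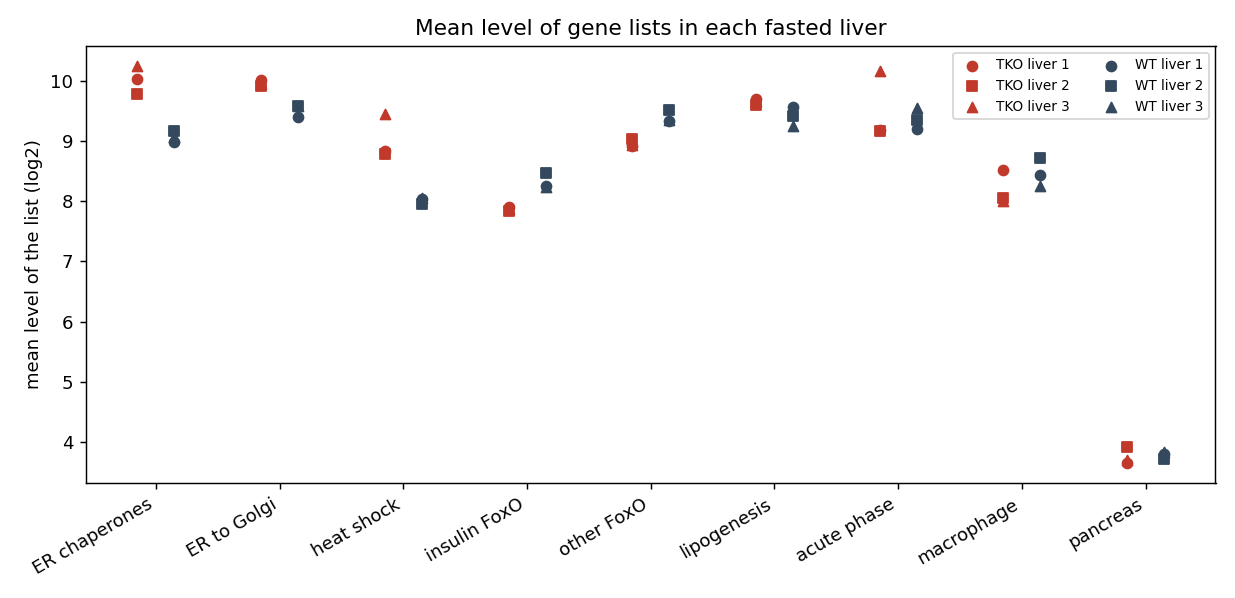
Mean log2 level of each gene list in each fasted liver, TKO livers in red and WT livers in dark, 1 symbol per liver. ER chaperones and heat shock genes are higher in all 3 TKO livers than in any WT liver and highest in TKO liver 3. ER to Golgi and lipogenesis genes are also higher in all 3, the FoxO target lists are lower in all 3, and macrophage and pancreas markers overlap.

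Calls concentrated among brighter features. Of 5679 features with a mean below 4, 0 were called, while the 3882 between 8 and 10 gave 10 higher and 3 lower, and the 1718 at 10 and over gave 11 higher and 1 lower. Non-overlapping features higher in TKO made up 4.98% of the dimmest class and 19.8% of the class from 8 to 10, against 5.58% and 9.94% lower. At 10 and over, 18.2% were higher and 13.4% lower. The shares over all features given beside the gene lists include the dim features. Lists of bright genes, such as the ER lists, thus stand beside shares below those of their own signal class. The share of the variance between genotypes, over all features, was 33.02%, the highest of the 10 splits of the 6 arrays into 3 and 3 (exact permutation test, p = 0.1, the smallest this design allows). Any split of 6 arrays places part of the variance between its groups, so this share is not a measure of genotype alone. The 100 features with the highest moderated t (limma) were chosen from 2 arrays per genotype. Their mean difference in the left-out pair was 0.92, against 1.49 in the arrays that chose them. Over the 9 pairs, 77 to 88 of the 100 kept their side. For the 100 features with the lowest moderated t the left-out difference was -0.55, against -1.21, and 62 to 86 of 100 kept their side.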

How the data were processed

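Total RNA of mouse liver, extracted with Trizol and labelled with biotin, was measured on 1-colour arrays. The authors deposited log2 values, and RMA and Partek are named in the submitters' processing notes. RMA corrects background, equalises array distributions by quantiles and averages a feature's probes, so overall shifts between arrays are removed. Signal over background is not given, so the precision of dim features is unknown, and 3 arrays per group limit that of every mean.

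Features were named from the platform annotation table: 14939 had 1 symbol, 989 several and 7310 were not in the table. TKO and WT were compared with limma 3.58.1 in R 4.3.3 (lmFit, eBayes with default settings; 4 residual and 2.66 prior degrees of freedom) on the 6 fasted arrays, with no filter, Benjamini-Hochberg adjustment over 23238 features and a threshold of 0.05. The fit was tested on simulated data. Alternatives were a fit to all 12 arrays, median centring, cyclic loess, removal of the 30% dimmest features, trend and robust moderation, array weights, other thresholds and each array left out.

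Named genes were the 12 largest rises and up to 12 largest falls among called features without overlap and with 1 symbol, plus gene lists; falls numbered 6. Other genes named with values were chosen after their values were seen. The comparison and lists were chosen with earlier results of these data known. Of the lists, 18 were written from general knowledge of liver and 12 after the values of single genes were seen, among them all ER, heat shock and Atf4 lists and the other FoxO targets, so their counts are descriptions and not independent evidence. Lists were given no test of their own. Promoters came from RefSeq (GRCm38.p6).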

Additional observations from a re-analysis of the deposited data

How the results depend on the processing

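The number of called features, 40 (30 higher, 10 lower), depended on the setting. It was 205 (162 higher, 43 lower) in the fit to 12 arrays, 141 (111 higher, 30 lower) without the 30% dimmest features, where fewer features were tested, and 68 (52 higher, 16 lower) with trend and robust moderation. It was 53 (34 higher, 19 lower) after median centring, 51 (29 higher, 22 lower) after cyclic loess, 34 (25 higher, 9 lower) with array weights, and 241 (186 higher, 55 lower) at an adjusted p under 0.1. With 1 array left out it was 0 to 6, with 0 to 3 higher and 0 to 3 lower. The count of 0 came without WT liver 1, in limma, where 1376 features were higher and 1159 lower at an unadjusted p under 0.05; such fits have fewer samples. The cause of the other changes was not tested. Of the 40 features, 39 stayed called after median centring, 34 after cyclic loess and 34 with array weights. With trend and robust moderation 40 stayed called, and with 1 array left out 0 to 3. Every one tested kept its direction in each of these settings and in the 12-array fit. Only median centring and cyclic loess could have changed it. The 12-array fit and trend and robust moderation leave the difference as it is. Without overlap, weighting or leaving out an array cannot reverse it. Among named genes, Chordc1, Elovl6, Srprb and Cdk2ap2 lost their call under cyclic loess, Manf, Srprb and Cdk2ap2 with array weights (adjusted p = 0.0505 each, limma) and Srprb in the 12-array fit. With 1 array left out, the difference ranged from -1.27 to 0.60 for Lcn2 and from -0.31 to 0.060 for Foxo4, so both of these single genes changed sign. The share of variance between genotypes was 33.02% to 38.3%. With 1 array left out it was 36.01% to 38.3%, but with fewer arrays any split takes a larger share on average. No paired analysis was possible because the labels give each sample a code of its own and no number shared between genotypes.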

Other observations

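Several genes outside the lists were lower in TKO livers and called in the 12-array fit alone; they were chosen after their values were seen. Upp2, a uridine phosphorylase, was at 9.77, 10.55 and 9.57 in TKO livers and 11.71, 11.98 and 11.81 in WT livers, a difference of -1.87. Mfsd2a, a carrier of lysophospholipids that fasting is known to induce in liver, differed by -1.42, and Lpin2, a phosphatidate phosphatase, by -1.33. Ppm1k, the phosphatase that activates branched-chain amino acid breakdown, differed by -1.53. Nr1i3 (CAR), a nuclear receptor of drug metabolism, was at 11.22, 11.57 and 11.21 in TKO livers and 12.21, 12.11 and 12.13 in WT livers. Groups overlapped for none of these 5 genes. Of the 12 alternative settings, which include the 12-array fit, Mfsd2a and Lpin2 were called in 5, Upp2 in 2, and Ppm1k and Nr1i3 in 1. Rgs16, a regulator of G-protein signalling, was at 8.14, 8.13 and 8.05 in TKO livers and 10.54, 11.28 and 9.17 in WT livers, where WT livers varied widely, and was called in neither fit.

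TKO liver 3 stood apart from the other TKO livers in a few transcripts. Lcn2, an acute phase protein, was at 9.09, 8.97 and 12.70 in TKO livers and 9.39, 10.12 and 11.37 in WT livers. Mt1, a metallothionein, was at 9.83, 9.32 and 12.02 in TKO livers and 12.64, 12.54 and 12.26 in WT livers. Over all features TKO liver 3 had 11 more than 2 log2 units above its mates and 6 below, while WT liver 3 had 12 above and 1 below and WT liver 1 had 4 above and 9 below.

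Features that the annotation table does not list included the largest fall of the comparison, and a rise next in size to that of Sdf2l1. The rise was that of feature 5412190, at 6.89, 6.32 and 6.78 in TKO livers and 2.96, 2.60 and 3.61 in WT livers, a difference of 3.61 (adjusted p = 0.0381 in the 6-array fit and 0.0730 in the 12-array fit, limma). The fall was that of feature 4642530, at 3.60, 3.17 and 4.47 in TKO livers and 7.31, 7.61 and 8.10 in WT livers, a difference of -3.92 (adjusted p = 0.0404 in the 6-array fit and 0.0886 in the 12-array fit, limma).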
